A study of Mus musculus with 2 samples.

Results

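The genes of the proteasome were described here, namely every gene in the count tables of both libraries with a symbol of the form Psma to Psmg followed by a number. The rule found 48 of the 27179 genes listed. They comprised 7 alpha ring subunits, 7 constitutive beta ring subunits, 3 immunoproteasome subunits (Psmb8, Psmb9 and Psmb10), 2 core subunits known from testis and thymus (Psma8 and Psmb11), 6 ATPases and 11 other subunits of the regulatory particle, 3 assembly factors of the regulatory particle, 4 activators, 1 inhibitor and 4 assembly chaperones of the core. The rule used names only and no measured value.

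RNA was sequenced from iBAT, the interscapular depot of thermogenic brown fat, of untreated C57BL/6N mice aged 20 days. The study contrasted wild-type (WT) mice with mice in which Ucp1 was knocked out (Ucp1-KO, genotype Δ/Δ) and asked how transcript levels of young brown fat differ when uncoupling protein 1 (UCP1), which makes mitochondria release heat, is absent. There was 1 library per genotype, and each held the pooled tissue of 3 animals. Hence no spread between animals, standard deviation or p-value could be given, and every value below is a difference between these 2 libraries with counting error alone.

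Proteasomes are the barrel-shaped proteases that degrade proteins marked with ubiquitin. Alpha subunits form the outer rings of the barrel and gate its entrance, beta subunits form the inner rings with the proteolytic sites inside, and the regulatory particle on the barrel's ends recognises, unfolds and feeds in the substrate. In immune and cytokine-stimulated cells, Psmb8, Psmb9 and Psmb10 take the places of the constitutive catalytic subunits Psmb5, Psmb6 and Psmb7, which alters the peptides made for antigen presentation. In brown fat, proteasome genes are known to be controlled by the transcription factor Nfe2l1, which sustains protein turnover during thermogenic adaptation to cold.

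The libraries held 52950913 counts (WT) and 53216727 counts (Ucp1-KO). As a check of the labels, Ucp1 had 366473 and 37853 counts, and the Ucp1-KO library held 12.7% of the WT level after scaling (95% counting interval 12.5% to 12.9%). Against the male label of both groups, 4 genes of the Y chromosome (Ddx3y, Eif2s3y, Kdm5d and Uty) had 0 counts in WT and 491 to 3446 counts in Ucp1-KO, and the X inactivation transcript Xist had 32380 and 16478 counts. Mitochondrially encoded transcripts made up 22.4% of all WT counts and 36.7% of all Ucp1-KO counts. Of 12 brown adipocyte markers, 11 had a higher normalised level in Ucp1-KO (7 of 12 with scaling to total counts), and together they took 1.08% and 1.15% of counts. Each of 10 markers of skeletal muscle was lower by at least 2-fold in Ucp1-KO, with 0.479% and 0.0496% of counts in sum, while 7 of 8 endothelial markers were lower in Ucp1-KO on either scale. The libraries thus differed in markers of other cell types and in sex-linked transcripts as well as in genotype. The part of these differences in the proteasome values was not tested. Fewer cells of a type and less RNA per cell cannot be told apart in bulk tissue.

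Promoter windows are shown for the members on which the comparisons turn. Psme1 and Psme2 encode partners of the same activator, Psma6 and Psmd4 had the highest ratios of the core and of the regulatory particle, and Psmb8 and Psmb9 are immunoproteasome genes next to each other on chromosome 17. The sequences are from RefSeq (table build GRCm38.p6), were placed on GRCm39 by exact match, and run 5′ to 3′ on the gene's strand from 250 bases before the transcription start to 30 bases after it. Capitals mark the core of an interferon-stimulated response element (ISRE, 2 copies of GAAA with any 2 bases between them) or of an ETS factor site (CCGGAAG) on either strand.
Psme1, chr14:55815701-55815980, plus strand: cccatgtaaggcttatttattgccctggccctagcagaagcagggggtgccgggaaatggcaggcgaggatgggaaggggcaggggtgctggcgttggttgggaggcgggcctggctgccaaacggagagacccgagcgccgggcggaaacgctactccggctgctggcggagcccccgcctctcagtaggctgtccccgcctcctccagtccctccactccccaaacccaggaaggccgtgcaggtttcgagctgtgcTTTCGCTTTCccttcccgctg
Psme2, chr14:55828529-55828808, minus strand: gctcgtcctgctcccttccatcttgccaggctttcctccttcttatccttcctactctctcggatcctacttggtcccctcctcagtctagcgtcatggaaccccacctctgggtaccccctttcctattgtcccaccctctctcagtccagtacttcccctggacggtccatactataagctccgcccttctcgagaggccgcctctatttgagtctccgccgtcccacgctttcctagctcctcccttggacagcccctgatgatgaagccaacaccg
Psma6, chr12:55445360-55445639, plus strand: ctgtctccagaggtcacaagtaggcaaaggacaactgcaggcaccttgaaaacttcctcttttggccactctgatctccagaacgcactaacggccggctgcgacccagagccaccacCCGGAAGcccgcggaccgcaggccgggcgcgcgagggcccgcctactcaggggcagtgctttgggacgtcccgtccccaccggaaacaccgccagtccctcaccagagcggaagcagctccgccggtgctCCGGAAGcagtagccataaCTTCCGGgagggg
Psmd4, chr3:94949896-94950175, minus strand: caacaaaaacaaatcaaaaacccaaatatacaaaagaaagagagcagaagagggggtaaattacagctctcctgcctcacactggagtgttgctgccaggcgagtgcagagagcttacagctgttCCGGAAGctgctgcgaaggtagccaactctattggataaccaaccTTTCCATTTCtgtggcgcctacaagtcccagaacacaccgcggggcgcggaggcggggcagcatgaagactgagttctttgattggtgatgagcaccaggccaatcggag
Psmb8, chr17:34416919-34417198, plus strand: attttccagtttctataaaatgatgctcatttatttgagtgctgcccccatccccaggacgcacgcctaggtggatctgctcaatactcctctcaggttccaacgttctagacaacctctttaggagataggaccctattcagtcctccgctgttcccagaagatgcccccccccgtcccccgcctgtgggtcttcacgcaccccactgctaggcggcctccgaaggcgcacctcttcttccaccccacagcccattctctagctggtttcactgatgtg
Psmb9, chr17:34406275-34406554, minus strand: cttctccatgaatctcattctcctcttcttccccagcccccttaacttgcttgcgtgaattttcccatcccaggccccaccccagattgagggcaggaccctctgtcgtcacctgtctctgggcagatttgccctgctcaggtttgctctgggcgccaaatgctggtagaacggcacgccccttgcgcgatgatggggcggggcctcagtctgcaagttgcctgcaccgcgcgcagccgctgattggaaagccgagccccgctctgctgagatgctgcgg
The Psme1 window held an ISRE core that started 10 bases after the transcription start, whereas neither the Psme2 window nor those of Psmb8 and Psmb9 held either motif. The windows shown for Psme1, Psme2, Psma6, Psmb8 and Psmb9 lie inside the genes as annotated on GRCm39. They do not cover the sequence before those annotated starts. The table holds a second Psma6 window (chr12:55430757-55431056), which ends just past the annotated start of the gene and had neither motif, and the window shown here held 3 ETS cores, while the Psmd4 window carried 1 ETS core and 1 ISRE core.

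Proteasome transcripts as a group stood slightly higher in the Ucp1-KO library than the median gene. The difference is given as the log2 ratio, log2((Ucp1-KO + 0.5)/(WT + 0.5)) on counts normalised by median-of-ratios size factors, so that 0 lies close to the median gene and positive values are higher in Ucp1-KO. Genes were examined where the normalised count averaged 10 or more, as it did for 46 of the 48 members and for 15212 genes in all. The median log2 ratio of these 46 members was 0.19 (quartiles 0.11 and 0.39) against −0.00 for all genes examined (quartiles −0.39 and 0.35). Of the members, 41 lay above 0 and 5 below, whereas 49.9% of all genes examined lay above 0. Scaling to total counts, in which the mitochondrially encoded transcripts weigh in, shifts every log2 ratio by −0.31, and on that scale the median of the members was −0.12 and 33 of them lay below 0. Because the shift is shared, the distance between the members' median and that of all genes hardly depends on scaling (0.20 on that scale, 0.19 after median-of-ratios scaling). With the running median of genes of similar expression subtracted, the distance was 0.14.

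No member examined reached a 2-fold difference in either direction, compared with 7.42% of all genes examined for higher and 9.55% for lower levels. Under a smaller size rule, 13 members were at least 25% higher in Ucp1-KO and 1 was at least 20% lower, against 26.7% and 28.5% of all genes examined (with scaling to total counts 5 and 4 members, against 13.8% and 49.3% of all genes). The 95% counting interval excluded equal levels for 34 members on the higher side and 3 on the lower side (31.5% and 30.5% of all genes examined), and for 7 and 21 with scaling to total counts (14.4% and 53.9% of all genes on that scale). These intervals are exact binomial intervals on read pairs and cover counting error only. They are narrow for abundant genes, with a median half-width of 0.09 on the log2 scale over the members. Most proteasome genes are abundant, and of the 6395 genes whose normalised count averaged 1000 or more, 56.0% lay above 0, 23.8% passed the smaller size rule on the higher side and 17.1% on the lower side, with a median log2 ratio of 0.06. A 2-fold difference was rarer among these abundant genes, at 2.63% for higher and 2.86% for lower levels. The lack of such a difference in the members therefore sets them little apart from abundant genes. The quartiles of the abundant genes were −0.20 and 0.31, against 0.11 and 0.39 for the members. The members thus lay mostly on one side of 0 after median-of-ratios scaling, without large single differences.

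**Figure D1:**
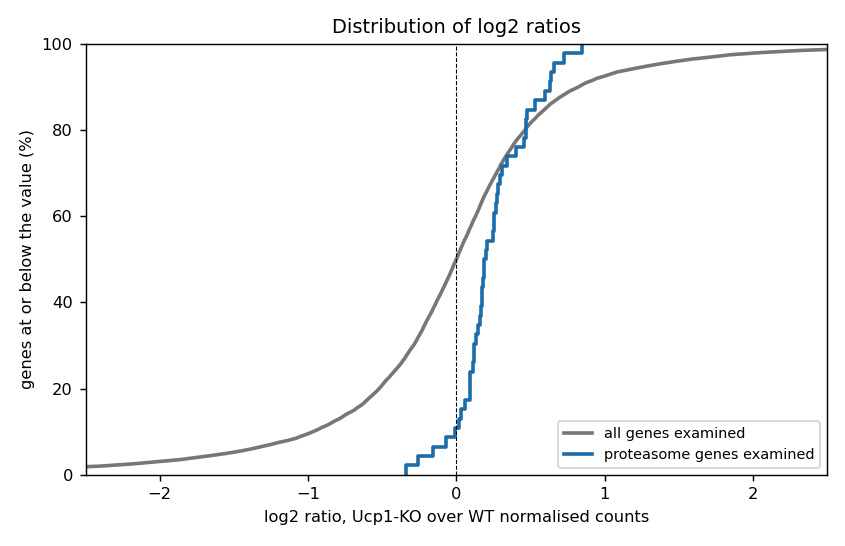
Cumulative percentage of genes (y axis) at or below each log2 ratio of Ucp1-KO over WT normalised counts (x axis), for all 15212 genes examined (grey) and the 46 proteasome genes examined (blue). The blue curve is steeper, runs from −0.34 to 0.84 and crosses 50% at 0.19 while the grey curve crosses it near 0; with scaling to total counts the medians are −0.12 and −0.31.

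Proteasome genes took 0.331% of all WT counts (95% interval 0.328% to 0.333%) and 0.319% of all Ucp1-KO counts (0.316% to 0.321%). Among transcripts of nuclear genes alone, the share was 0.426% (0.423% to 0.429%) in WT and 0.503% (0.4998% to 0.507%) in Ucp1-KO. The direction of the difference in share thus depended on whether mitochondrially encoded transcripts were included in the total.

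The alpha ring showed a median log2 ratio of 0.17, and with scaling to total counts its median was −0.14. All 7 genes were above 0 and 5 of 7 were higher beyond counting error, against 49.9% and 31.5% of all genes examined. Psma6 stood apart from its ring. Its normalised count was 7395 in WT and 11642 in Ucp1-KO (8204 and 10494 counts), a 1.57-fold difference with a log2 ratio of 0.65 (95% counting interval 0.60 to 0.71). Psma7 was at the other end with 3525 and 3608 normalised counts (3911 and 3252 counts) and a log2 ratio of 0.03 (−0.06 to 0.13), which counting error covers. The ring is built from equal numbers of each alpha subunit, but its transcripts did not share a single ratio, and the intervals of 4 of 7 members left out the ring's median. Psma4, Psma5, Psma2 and Psma3 lay between 0.17 and 0.25, and Psma1 was at 0.06.

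The constitutive beta ring had a median log2 ratio of 0.26 with all 7 genes above 0 and 6 beyond counting error, and a median of −0.05 with scaling to total counts. Psmb2, a subunit without proteolytic activity, had the highest ratio of the ring, with 2458 normalised counts in WT and 3720 in Ucp1-KO (2727 and 3353 counts, log2 ratio 0.60, 0.49 to 0.70). Psmb4, likewise non-catalytic, had nearly equal levels of 6244 and 6305 normalised counts (6927 and 5683 counts, log2 ratio 0.01, −0.06 to 0.09). The catalytic subunits lay close together between these extremes. Psmb5, the chymotrypsin-like subunit, had 3020 and 3479 normalised counts (3350 and 3136 counts, log2 ratio 0.20, 0.10 to 0.30). Psmb6, the caspase-like subunit, had 4551 and 5478 (5049 and 4938 counts, 0.27, 0.19 to 0.35). Psmb7, the trypsin-like subunit, had 6810 and 8132 (7555 and 7330 counts, 0.26, 0.19 to 0.32). Their intervals overlapped one another, and none of the catalytic subunits passed the smaller size rule. Psmb1 and Psmb3 had log2 ratios of 0.31 and 0.16. Over the 14 genes of both rings the median log2 ratio was 0.20 (−0.10 with scaling to total counts). Of them, 11 were higher beyond counting error and 2 at least 25% higher, against 31.5% and 26.7% of all genes examined.

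**Figure D2:**
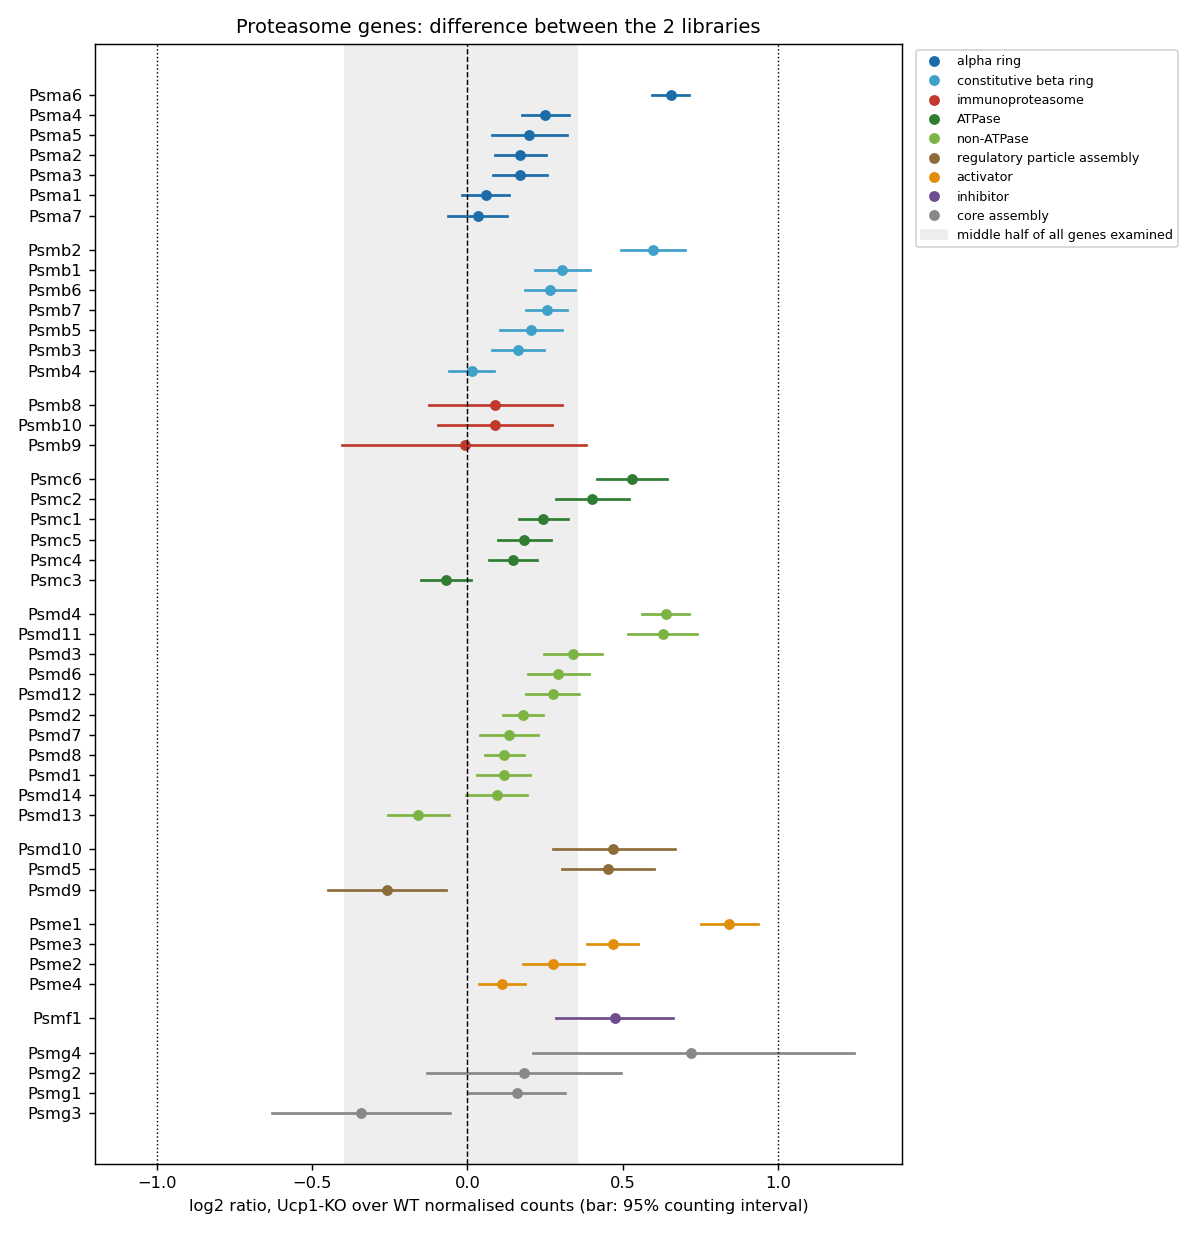
Log2 ratio of Ucp1-KO over WT normalised counts (x axis) for each of the 46 proteasome genes examined (y axis), coloured by class, with bars for the 95% counting interval; the dashed line is the median of all genes examined, the grey band their middle quartiles (−0.39 to 0.35) and the dotted lines 2-fold. Psme1 lies farthest to the right at 0.84, the bars of the 3 immunoproteasome genes cross 0, and Psmg3, Psmd9 and Psmd13 lie to the left; with scaling to total counts all points shift by −0.31, and 33 lie below 0.

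The immunoproteasome genes had a median log2 ratio of 0.09 (−0.22 with scaling to total counts). Psmb8 had 699.5 normalised counts in WT and 744.4 in Ucp1-KO (776 and 671 counts, log2 ratio 0.09, −0.13 to 0.30). Psmb10 had 951.8 and 1012 (1056 and 912 counts, 0.09, −0.10 to 0.27), and Psmb9 had 224.4 and 223.0 (249 and 201 counts, −0.01, −0.40 to 0.38). None of the 3 differed between libraries by more than counting error after median-of-ratios scaling. The intervals are wide because these genes are weakly expressed in iBAT, and a difference of the size seen for the core, 0.20, lies inside each of them. Psmb8 (GRCm39 chromosome 17, 34416690 to 34420428, plus strand) and Psmb9 (chromosome 17, 34400960 to 34406738, minus strand) lie 9952 bases apart in the major histocompatibility region, and Psmb9 overlaps exons of Tap1 on the opposite strand. Psmb10 lies on chromosome 8 (106662362 to 106665077, minus strand).

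The transcript share of each immunoproteasome subunit in its pair with the constitutive subunit was compared within each library, since such a share needs no scaling. Incorporation of the subunits into proteasomes was not measured. In bulk tissue the transcripts of a pair may come from different cells. Psmb8 made up 18.8% of the Psmb8 and Psmb5 counts in WT (95% interval 17.1% to 20.6%) and 17.6% in Ucp1-KO (15.9% to 19.4%). Psmb9 made up 4.70% (3.93% to 5.58%) and 3.91% (3.20% to 4.73%) of the counts of its pair with Psmb6. Psmb10 made up 12.3% (11.3% to 13.3%) and 11.1% (10.1% to 12.1%) of the counts of its pair with Psmb7. Each share was lower in Ucp1-KO, and in each pair the interval of the log2 difference included 0 (−0.35 to 0.13 for Psmb8, −0.68 to 0.12 for Psmb9 and −0.36 to 0.03 for Psmb10). Summed over the 3 pairs, the immunoproteasome share was 11.5% in WT (10.9% to 12.2%) and 10.4% in Ucp1-KO (9.74% to 11.04%), a log2 difference of −0.17 (−0.31 to −0.03). This sum was outside counting error, with the constitutive subunits higher relative to the immunoproteasome subunits in Ucp1-KO. The share is not adjusted for expression level, and the constitutive subunits are more abundant. With the running median of genes of similar expression subtracted, the median log2 ratios were close, at 0.13 for the immunoproteasome and 0.14 for the constitutive beta ring. Whether the difference in share exceeds the spread between animals cannot be read from 1 library per genotype.

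**Figure D3:**
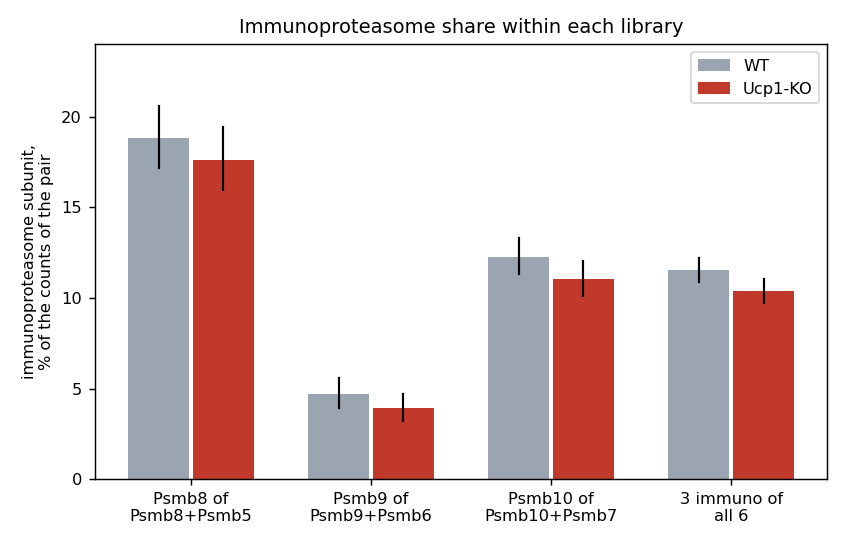
Counts of each immunoproteasome subunit as a percentage of its pair with the constitutive subunit it replaces (y axis), in WT (grey) and Ucp1-KO (red), with 95% binomial counting intervals as black lines. The bars are 18.8% and 17.6% for Psmb8, 4.70% and 3.91% for Psmb9, 12.3% and 11.1% for Psmb10, and 11.5% and 10.4% for the 3 subunits together.

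Immunoproteasome genes are expressed highly in leukocytes, so markers of immune cells are given beside them. Of 8 macrophage and haematopoietic markers, 3 were at least 2-fold higher in Ucp1-KO, against 7.42% of all genes examined. These were Itgam, Fcgr1 and Cd68, with log2 ratios of 2.04, 1.76 and 1.09. Adgre1, Csf1r and Laptm5 were within counting error at −0.21, −0.01 and 0.22. The median of the list was 0.67 (0.36 with scaling to total counts, where 3 of 8 lay below 0), and the summed counts were 2341 in WT and 2701 in Ucp1-KO. The lymphocyte markers were sparse, with 204 and 176 counts summed over 8 genes, and went in both directions. Cd4 was lower beyond counting error (59 and 13 counts, log2 ratio −1.85, −3.37 to −0.63) and Cd3d had 10 and 0 counts, whereas Cd3e had 8 and 20, Cd8a 12 and 22, and Cd79a 43 and 59. The role of immune cell content in the immunoproteasome values was not tested. Of 8 other genes of interferon-gamma response and class I antigen processing, none passed the smaller size rule (26.7% and 28.5% of all genes examined). Lower beyond counting error were 2 of them (30.5% of all genes examined), while all 8 lay below 0 with scaling to total counts. The lowest was Erap1, the aminopeptidase that trims antigenic peptides, with 2129 and 1784 normalised counts (log2 ratio −0.26, −0.39 to −0.13). Nlrc5, the transactivator of class I genes, had 409.2 and 481.5 normalised counts and a log2 ratio of 0.23 (−0.04 to 0.51). The median of the list was 0.03, near that of the immunoproteasome genes, 0.09.

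The base of the regulatory particle holds a ring of 6 ATPases that unfold substrates. The median log2 ratio of the ATPases was 0.21, with 5 of 6 higher beyond counting error (31.5% of all genes examined), and −0.09 with scaling to total counts. Psmc6 had the highest ratio with 2125 normalised counts in WT and 3071 in Ucp1-KO (2358 and 2768 counts, log2 ratio 0.53, 0.42 to 0.64). Psmc3 had the lowest, with 5259 and 5011 (5835 and 4517 counts, −0.07, −0.15 to 0.01). Psmc2 was also at least 25% higher, with 2056 and 2718 normalised counts and a log2 ratio of 0.40 (0.29 to 0.52). Psmc1, Psmc5 and Psmc4 lay at 0.24, 0.18 and 0.15.

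The 11 non-ATPase subunits include the ubiquitin receptors, the scaffold and the deubiquitinase of the particle. Their median log2 ratio was 0.18, and −0.13 with scaling to total counts. Beyond counting error, 9 were higher and 1 lower, against 31.5% and 30.5% of all genes examined. Psmd4, a receptor for ubiquitin chains on chromosome 3 (94937765 to 94949925, minus strand), had 4509 normalised counts in WT and 7023 in Ucp1-KO (5002 and 6330 counts, log2 ratio 0.64, 0.56 to 0.72). Psmd11, a lid subunit, had 2147 and 3322 (2382 and 2994 counts, 0.63, 0.52 to 0.74). Psmd13, another lid subunit, was lower beyond counting error, with 3576 and 3204 normalised counts (3967 and 2888 counts, −0.16, −0.26 to −0.06). After median-of-ratios scaling no other ATPase or non-ATPase member was lower beyond counting error. The lid subunit Sem1, which the naming rule does not cover, was lower as well (−0.38, −0.54 to −0.22). With TMM factors Psmc3 was also lower beyond counting error (−0.08), and with total counts Psmc3 (−0.38) and Psmd14 (−0.21) were among others. An exon of Psmd13 overlaps Cox8b on the opposite strand, which was abundant (35819 and 29028 normalised counts, log2 ratio −0.30), and the strand setting of the counting is not given in the sources used here. Psmd3 passed the smaller size rule with a log2 ratio of 0.34, and the scaffold genes Psmd2 and Psmd1 were at 0.18 and 0.12. Psmd14, the deubiquitinase, was at 0.09 (−0.00 to 0.19), within counting error. Psmd6, Psmd12, Psmd7 and Psmd8 ranged from 0.12 to 0.29.

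Core and regulatory particle showed similar differences. The median log2 ratio was 0.20 for the 14 core genes and 0.18 for the 17 regulatory particle genes (−0.10 and −0.12 with scaling to total counts). At least 25% higher were 2 core genes and 5 regulatory particle genes, against 26.7% of all genes examined. The summed counts of the regulatory particle were 53.0% of those of both parts in WT and 52.4% in Ucp1-KO, a log2 difference of −0.04 (−0.07 to −0.01). The immunoproteasome genes made up 2.89% of their sum with the core in WT and 2.56% in Ucp1-KO, a log2 difference of −0.18 (−0.31 to −0.05). The shift between core and regulatory particle was small. That between core and immunoproteasome had a larger estimate and a wider interval, and the intervals overlapped. With the running median of genes of similar expression subtracted, the median was 0.13 for the immunoproteasome. The medians were then 0.081 for the alpha ring and 0.14 for the beta ring.

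Levels between genes were compared per kilobase of coding sequence. The median level of the core genes was 6317 normalised counts per kilobase in WT and 7117 in Ucp1-KO, with Psma5 lowest (2902 and 3333) and Psma6 highest (10020 and 15776). The regulatory particle had a median level of 3170 and 3538, from Psmd1 (1465 and 1588) to Psmd8 (7539 and 8188). The immunoproteasome genes had a median level of 844.8 and 899.1, from Psmb9 (341.6 and 339.4) to Psmb10 (1162 and 1235). By this measure every immunoproteasome gene lay below every core gene in both libraries. Exons also hold untranslated sequence, which coding length leaves out. The canonical transcript is 6002 bases for Psmb1 and 1312 for Psmb10, with coding lengths of 720 and 819. The order of genes therefore depends on the length used.

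**Figure D4:**
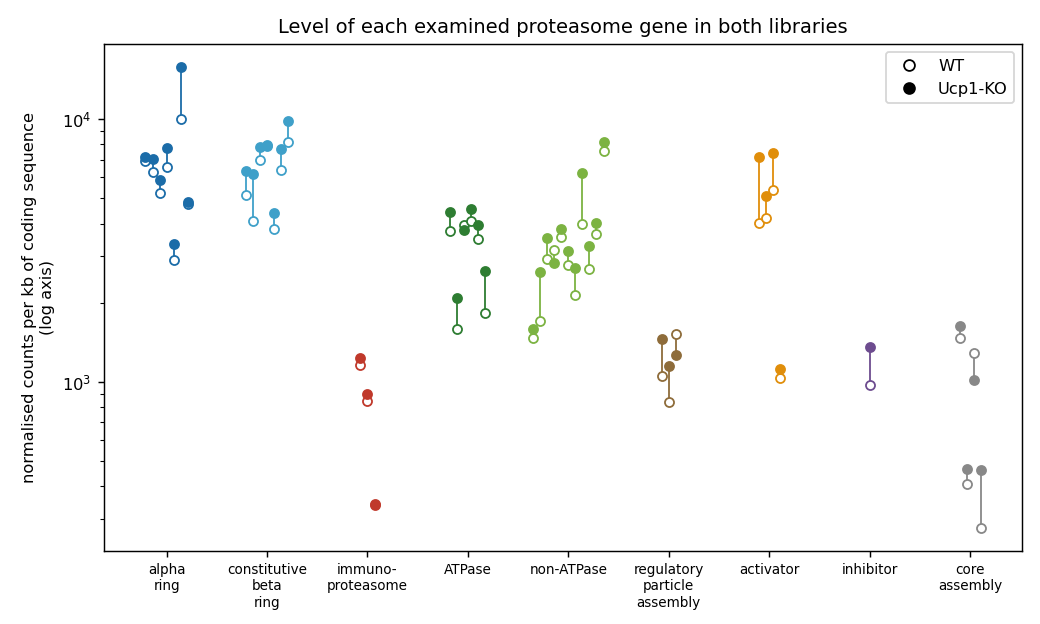
Normalised counts per kilobase of coding sequence (y axis, log axis) for each proteasome gene examined in WT (open circles) and Ucp1-KO (filled circles), grouped by class (x axis), with a line joining the values of a gene. Core genes lie between 2902 and 15776, immunoproteasome genes between 339.4 and 1235, and the longest lines belong to Psme1, Psmg4 and Psma6. With scaling to total counts Psme1 (0.54) and Psma6 (0.35) are higher in Ucp1-KO as well, while Psmg4 (0.42) comes within counting error.

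The activators cap the core in place of the regulatory particle. All 4 were higher beyond counting error, against 31.5% of all genes examined. Their median was 0.37 on the log2 scale (0.07 with scaling to total counts, where Psme4 and Psme2 turned to −0.20 and −0.03). Psme1, which encodes the alpha subunit of the interferon-inducible activator PA28, had the highest log2 ratio of the 46 members. It had 2996 normalised counts in WT and 5379 in Ucp1-KO (3324 and 4848 counts), a 1.80-fold difference with a log2 ratio of 0.84 (0.75 to 0.94), and 9.52% of all genes examined had a higher ratio. Psme2, which encodes the beta subunit of the same ring, had 3011 and 3648 (3340 and 3288 counts, 0.28, 0.18 to 0.38). Psme3, the related nuclear activator, had 4080 and 5647 (4527 and 5090 counts, 0.47, 0.39 to 0.55). Psme4, a large activator of the nucleus, had 5728 and 6187 (6355 and 5577 counts, 0.11, 0.04 to 0.19).

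The partners Psme1 and Psme2 did not share a ratio. Psme1 supplied 49.9% of the counts of the pair in WT (95% interval 48.2% to 51.6%) and 59.6% in Ucp1-KO (58.1% to 61.1%), a log2 difference of 0.57 (0.43 to 0.70). Relative to Psme3 the log2 difference of Psme1 was 0.38 (0.25 to 0.50). Psme1 (chromosome 14, 55815190 to 55822034, plus strand) and Psme2 (chromosome 14, 55824895 to 55829173, minus strand) are neighbours 2861 bases apart. The annotated Psme1 overlaps exons of Emc9 on the opposite strand, which had 905.9 and 1431 normalised counts (log2 ratio 0.66, 0.49 to 0.83), so a part of the counts of either gene is uncertain. Psme2 has 1 near-identical locus elsewhere in the genome. As a class, the activators were higher relative to the core in Ucp1-KO by 0.14 on the log2 scale (0.09 to 0.19).

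Psmf1, the inhibitor that binds the core, was at least 25% higher, with 791.4 normalised counts in WT and 1100 in Ucp1-KO (878 and 991 counts, log2 ratio 0.47, 0.29 to 0.66). Of the assembly factors of the regulatory particle, which hold the ATPases until the base is complete, Psmd5 had 1266 and 1733 normalised counts (1405 and 1562 counts, 0.45, 0.30 to 0.60). Psmd10, the oncoprotein gankyrin, had 729.2 and 1011 (809 and 911 counts, 0.47, 0.27 to 0.67). Psmd9, in contrast, had 1011 and 845.4 (1122 and 762 counts, −0.26, −0.45 to −0.07). Psmd5 and Psmd10 were thus higher and Psmd9 lower beyond counting error. With scaling to total counts Psmd5 (0.15), Psmd10 (0.16) and Psmf1 (0.17) came within counting error and under 25%, and Psmd9 was at −0.57.

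The chaperones of the core, which pair up to place the alpha subunits, differed in both directions, and Psmg2, Psmg3 and Psmg4 were weakly expressed. Psmg4 had 102.8 normalised counts in WT and 169.7 in Ucp1-KO (114 and 153 counts, log2 ratio 0.72), with a wide interval of 0.21 to 1.2. Its partner Psmg3 had 469.6 and 370.6 (521 and 334 counts, −0.34, −0.63 to −0.06), the lowest ratio of the members and, after median-of-ratios scaling, the only member examined that was at least 20% lower. Psmg1 had 1271 and 1419 normalised counts (1410 and 1279 counts, 0.16, 0.00 to 0.32), and its partner Psmg2 had 323.6 and 367.2 (359 and 331 counts, 0.18, −0.13 to 0.50).

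The core subunits of specialised tissues were not measurable in iBAT. Psma8, which replaces an alpha subunit in male germ cells, had 1 count in WT and 6 in Ucp1-KO. Psmb11, the beta subunit of thymic cortical epithelium, had 0 and 6 counts. A count of 0 allows up to 6 counts (3 read pairs), and no fold is given because neither gene exceeded that limit in either library.

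Genes of the wider pathway were described by lists. Of 9 other proteasome parts and assembly genes, 8 were found under the symbols searched, with a median of 0.23 (−0.08 with scaling to total counts). Of these, 3 were at least 25% higher and 1 at least 20% lower, against 26.7% and 28.5% of all genes examined. Uchl5 and Usp14, the deubiquitinases that bind the regulatory particle, had log2 ratios of 0.63 (0.44 to 0.81) and 0.51 (0.41 to 0.62). Sem1, the smallest lid subunit, had 1533 and 1176 normalised counts (−0.38, −0.54 to −0.22). Pomp, the chaperone that completes the core, had 2873 and 2637 (3187 and 2377 counts, −0.12, −0.23 to −0.01). Sem1 and Pomp were thus lower beyond counting error.

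All 7 genes of the list on proteasome gene transcription had log2 ratios above 0 (4 of 7 with scaling to total counts), with a median of 0.37 (0.06 with total counts). Of them, 4 were at least 25% higher, against 26.7% of all genes examined. Nfe2l1, the transcription factor that drives proteasome genes, had 16777 normalised counts in WT and 22737 in Ucp1-KO (18613 and 20494 counts, 0.44, 0.40 to 0.48). Ddi2, the protease that activates Nfe2l1, had 367.8 and 626.8 (408 and 565 counts, 0.77, 0.50 to 1.04). Mafg and Mafk, small partners of Nfe2l1, were at 0.49 and 0.37. Of 18 genes of ubiquitin supply and substrate delivery, 17 were examined, with a median of 0.13 (−0.18 with scaling to total counts). At least 25% higher were 5 of them and at least 20% lower 0, against 26.7% and 28.5% of all genes examined. The largest ratios in the delivery list were those of Uba6 (0.67, 0.45 to 0.89), Nploc4 (0.38, 0.29 to 0.48) and Uba1 (0.37, 0.31 to 0.42), of which Uba6 and Uba1 are ubiquitin-activating enzymes.

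Motifs were counted in RefSeq promoter windows of 250 bases before to 50 after the start, on both strands, for the 40 members with a window (43 windows). No window was available here for Psma8, Psmb1, Psmb2, Psmb7, Psmc3, Psmd3, Psmd7 and Psmg2. The ETS core CCGGAAG occurred in 15 of the 43 windows (34.9%), in 14 members, compared with 8.86% of all 32851 windows and 18.7% of the 8878 windows of genes with at least 1000 counts over both libraries. The ISRE core occurred in 5 windows (11.6%, of Psmb3, Psmd4, Psmd9, Psme1 and Psmg4), compared with 3.44% and 2.73%. Members with the ETS core had a median log2 ratio of 0.28 and those without it 0.17. Members with the ISRE core ranged from −0.26 for Psmd9 to 0.84 for Psme1, with a median of 0.64, against 0.18 for those without it. The antioxidant response element core TGACNNNGC, of the type that Nfe2l1 binds, occurred in 6 windows (14%, against 12.4% and 14.6%), and those members had a median of 0.24 compared with 0.18. The CCAAT box was found in 14 windows (32.6%, against 37.4% and 36.6%), with a median of 0.17 for members with it and 0.19 for those without. The gamma-activated site core TTCNNNGAA occurred in 3 windows (6.98%, against 8.30% and 6.48%, in Psmb8, Psmd2 and Psmg1), and the cyclic AMP response element TGACGTCA in 0 (against 1.79% and 3.24%). Median GC content was 57.3% in the members' windows, 52.7% in all windows and 61.7% in those of expressed genes. A match is a match of letters only, and motif and ratio were compared as a description.

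Reads of near-identical copies may be assigned to the wrong place. For 11 of the 48 members at least 1 other locus of the genome matched over at least 150 bases at 95% identity or more, with 4 such loci for Psmb3, 3 for Psma3 and 2 each for Psma5 and Psmc1. Without these 11 genes the median log2 ratio of the members examined was 0.18. Neither Psme1, Psma6 nor Psmd4 had such a copy, whereas Psmd11 had 1.

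**Figure D5:**
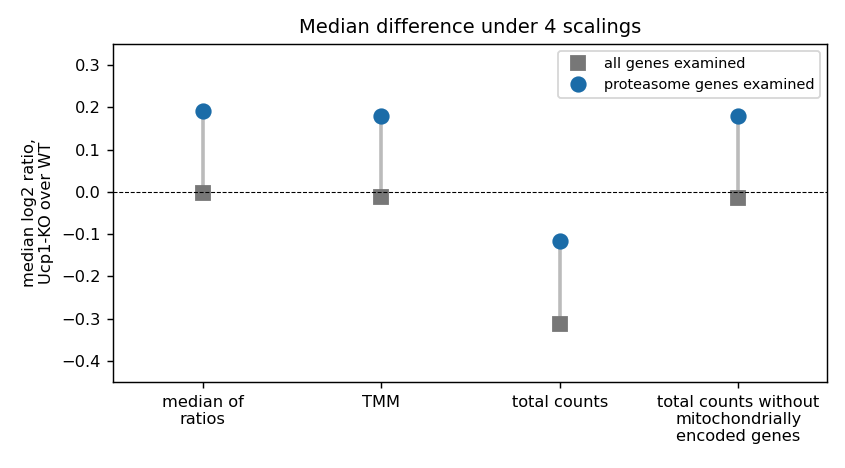
Median log2 ratio of Ucp1-KO over WT (y axis) of all genes examined (grey squares) and of the proteasome genes examined (blue circles) after scaling by median of ratios, TMM factors, total counts and total counts without mitochondrially encoded genes (x axis). The blue points lie above the grey points by 0.19 to 0.20 in each column, and both lie below 0 with total counts (−0.12 and −0.31). Scaling shifts all log2 ratios alike, so the near-equal distances follow from the method and are no separate support.

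The choice of scaling moved members and other genes alike. TMM factors and total counts without mitochondrially encoded genes each gave a median of 0.18 for the members, with 41 above 0 and 5 below, as after median-of-ratios scaling. Total counts gave 13 members above 0 and 33 below, where 27.2% of all genes examined lay above 0. Differences between members within a library, such as those of Psme1 and Psme2 or of the immunoproteasome pairs, do not depend on this choice.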

How the data were processed

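RNA of 2 libraries was compared, 1 of WT and 1 of Ucp1-KO iBAT, each of 3 pooled animals aged 20 days. The library kit was strand-specific with poly-A selection, per the labels. The authors deposited raw counts per gene from featureCounts. The submitters' processing notes name Trim Galore, HISAT2 and the build mm39. The annotation, the strand setting and the treatment of multimapping reads are not given in the sources used here, so counts of overlapping genes and near-identical copies are uncertain.

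Counts were divided by size factors of the median-of-ratios method in DESeq2 1.42.0 (R 4.3.3), 1.11 for WT and 0.901 for Ucp1-KO, and a pseudocount of 0.5 was added. Even values prevailed among counts of 1 to 10 (70.7% and 73.4%), so that both mates of a pair appear to be counted, and exact conditional binomial (Clopper-Pearson) 95% intervals were computed on counts divided by 2. The precision is that of 52950913 and 53216727 counts per library. TMM (trimmed mean of M-values) factors came from edgeR 4.0.16. The scripts were tested on simulated data. Near-identical loci were found with minimap2 2.31 in GRCm39, and positions are those of GENCODE on GRCm39, joined by symbol for all 48 members. Promoter sequences are from RefSeq.

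The members, classes, gene lists and size rules were chosen with earlier results of these data known. Values were given for the immunoproteasome genes and their partners, the extremes of each class, all members of classes of up to 4 genes, members under the minimum, Nfe2l1, Pomp and up to 3 of the largest ratios of each pathway list. Further members and marker genes were named after their values had been seen, and the values of some genes of the pathway lists are not reported here. Alternatives covered scaling, pseudocount, filter, expression trend and counting unit.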

Additional observations from a re-analysis of the deposited data

How the results depend on the processing

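Of 95 recomputed main values, 79 stayed within counting error of the reported value (within 1.5 times for counts) and 16 did not. Some of the 79 could not change. Dropping the filter or raising the minimum mean to 50 altered no member of the classes whose medians were recomputed. Total counts as the scale turned the sign of 6 medians, to −0.14 for the alpha ring, −0.051 for the beta ring, −0.093 for the ATPases, −0.13 for the non-ATPases, −0.12 for all members and −0.22 for the immunoproteasome. On that scale 5 members were at least 25% higher and 4 at least 20% lower, and 7 were higher and 21 lower beyond counting error (13.8%, 49.3%, 14.4% and 53.9% of all genes). The log2 ratio changed sign for 28 members, namely Psma1 (−0.25), Psma7 (−0.27), Psmb4 (−0.29), Psmb8 (−0.22), Psmb10 (−0.22), Psmd14 (−0.21), Psmg2 (−0.12), Psma2 (−0.14), Psma3 (−0.14), Psma4 (−0.056), Psma5 (−0.11), Psmb1 (−0.00056), Psmb3 (−0.14), Psmb5 (−0.10), Psmb6 (−0.039), Psmb7 (−0.051), Psmc1 (−0.062), Psmc4 (−0.16), Psmc5 (−0.12), Psmd1 (−0.19), Psmd2 (−0.13), Psmd6 (−0.013), Psmd7 (−0.17), Psmd8 (−0.19), Psmd12 (−0.032), Psme2 (−0.030), Psme4 (−0.20) and Psmg1 (−0.15). By construction that scale counts the mitochondrially encoded transcripts, and without them the values of all 46 members moved by less than counting error, as with TMM factors and a pseudocount of 5, although members lower beyond counting error were then 4, 4 and 3. Without a filter, 2 members were at least 2-fold higher (Psma8 and Psmb11, both at or under 6 counts). With the running median of genes of similar expression subtracted, the medians were 0.081 for the alpha ring, 0.14 for the beta ring and 0.076 for the non-ATPases. They were 0.13 for the immunoproteasome, 0.13 for the ATPases and 0.14 for all members, against 0 for all genes examined. Under that setting 0 members examined were at least 20% lower. Summed counts, in which abundant genes weigh more, gave 0.28 for the alpha ring. Psma6 had the most counts of that ring (8204 and 10494 of 35478 and 35036) and its highest log2 ratio, 0.65. A sum without Psma6 was not computed. The immunoproteasome difference was −0.19 as the mean of its 3 pairs and −0.18 per exonic length. The comparisons with near-identical loci removed and with genes of high expression were added after the data had been seen. No paired analysis was possible because there was a single library per genotype, and no library could be left out in turn either.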
